A study of Homo sapiens with 6 samples.

Results

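The cytosolic and mitochondrial chaperones described here are 37 genes, taken from the 58735 genes of the deposited tables by their symbols. They are the heat shock factor HSF1, the HSP70, HSP110, HSP90 and small heat shock proteins, J proteins, cochaperones, the 8 subunits of the chaperonin TRiC, and 5 genes of mitochondrial chaperones. Their RNA was measured by sequencing of poly(A) RNA in MOLT-3, a long-established line of human leukaemic T-cell precursors. The DMSO group has 3 libraries from MOLT-3 treated with that solvent, and the compound E group has 3 from MOLT-3 treated with compound E, which inhibits gamma-secretase and so blocks activation of NOTCH receptors. Dose and duration were not found in the sources used here, and both groups come from this 1 line. All 37 genes passed the filter on low counts, with at least 11 counts in every library, beside 16926 genes tested in all. The labels do not say that the 3 libraries of a group were separate cultures, so the p-values speak of the spread among these 6 libraries alone, and that spread may be technical.

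Chaperones bind proteins that are unfolded or newly made and help them reach their folded state. HSP70 proteins hold short stretches of a client in a cycle of ATP binding and hydrolysis, in which J proteins deliver clients and start hydrolysis and exchange factors release the nucleotide. HSP90 receives partly folded kinases and steroid receptors from HSP70 through adaptor cochaperones, and TRiC encloses actin, tubulin and other clients in a chamber. Mitochondria hold their own HSP70, J protein, chaperonin and HSP90, encoded in the nucleus and imported. In heat or proteotoxic stress HSF1 binds heat shock elements in promoters and raises many of the cytosolic genes at once, and leukaemia cells are known to depend on HSP90 and HSF1.

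The libraries held 17316138 to 19845114 counts, of which the 37 genes took 0.837% to 0.861%, and mitochondrially encoded genes took 4.60% to 5.34%. DTX1, a direct NOTCH target, fell from 172 ± 6.86 to 7.06 ± 1.03 CPM (counts scaled to equal library totals after TMM scaling; SD, n = 3 per group), and HES1 fell from 39.9 ± 2.81 to 8.92 ± 1.10 CPM. Of the T-lineage markers, CD3E, CD5, CD7, CD1A and RAG1 had means of at least 68.3 CPM in both groups. CD4 was scarcer than these markers, at 7.76 CPM with DMSO and 18.1 CPM with compound E. The markers differed between the groups. With compound E, CD4 rose 2.35-fold, RAG1 2.90-fold and CD1A 1.62-fold, while CD7 fell 1.66-fold, CD5 1.15-fold and CD3E 1.13-fold. MS4A1 of B cells and HBB of erythroid cells had 0 counts in every library, and COL1A1 of fibroblasts had 11.5 ± 0.893 and 9.63 ± 0.998 CPM.

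Compound E was compared with DMSO to see how these genes stand when NOTCH cleavage is blocked in a NOTCH-driven leukaemia line. Chaperones did not move one way. Of the 37 genes, 11 rose and 13 fell at an adjusted p under 0.05 (edgeR quasi-likelihood test, Benjamini-Hochberg over 16926 genes), and 13 did not pass. Together 24 genes were called, beside 38.3% of all tested genes. Those are 29.7% higher and 35.1% lower, where the test called 18.9% of all tested genes higher and 19.4% lower. Among the 9722 tested genes averaging 10 CPM or more, a level that HSPA1A alone of the 37 did not reach, it called 27.5% higher and 23.4% lower. The groups did not overlap in 12 genes that were higher with compound E and 15 that were lower, where this held for 23.3% and 23.5% of all tested genes, or 46.8% in either direction. Changes were small. The median log2 fold change of the 37 was -0.0057, against -0.0034 for all tested genes, the median size was 0.151 against 0.173, and HSPA1A alone changed by 1.5-fold or more. The summed level of the 37 was 8572 ± 69.7 CPM with DMSO and 8485 ± 103 CPM with compound E.

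**Figure D1:**
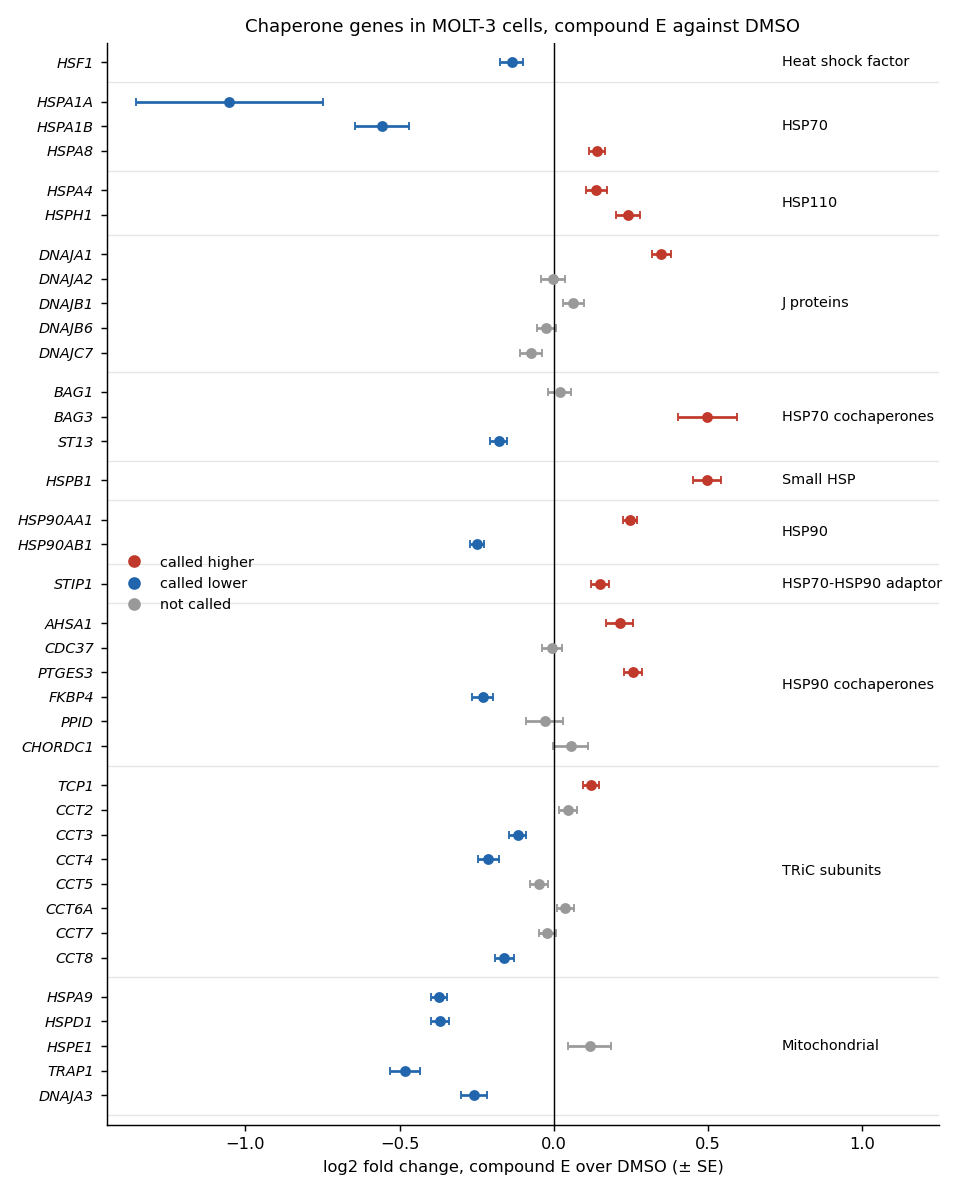
Log2 fold change of compound E over DMSO with its standard error (x axis) for the 37 genes, grouped by role, from 3 libraries per group; red points were called higher, blue points lower and grey points neither. Mitochondrial genes lie left of 0 except HSPE1, HSP90AA1 and HSP90AB1 lie at 0.25 and -0.25, and HSPA1A has the widest error.

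HSF1, the regulator of the heat shock genes, fell slightly. It stood at 117, 119 and 124 CPM in DMSO replicates 1 to 3 and at 106, 107 and 115 CPM in compound E replicates 1 to 3, so that all compound E libraries lay below all DMSO libraries. The log2 fold change was -0.14 ± 0.0366 (SE; edgeR adjusted p = 0.00267), a fall of 1.10-fold. The call was lost in the limma fit of log2(FPKM + 1) without a filter (-0.13, adjusted p = 0.102). The activity of HSF1 is set mainly on the protein, by release from chaperones, trimer formation and phosphorylation, none of which is measured here. HSF2, its relative, did not pass (0.06 on the log2 scale), and HSBP1, a small protein that binds HSF1 trimers, rose by 0.17.

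The cytosolic HSP70 genes went in both directions. HSPA8 (chr11:123057489-123063230, minus strand, GRCh38) is the constitutive HSP70, and it had 642, 636 and 641 CPM with DMSO and 695, 723 and 697 CPM with compound E, without overlap. It rose 1.10-fold (log2 fold change 0.14 ± 0.0247, SE; edgeR adjusted p = 1.29e-05). HSPA1B and HSPA1A, which encode the same stress-induced HSP70, fell. HSPA1B had 15.9, 18.8 and 16.1 CPM with DMSO and 11.7, 11.0 and 11.95 CPM with compound E, a fall of 1.47-fold (edgeR adjusted p = 1.69e-06). HSPA1A was scarcely detected, with 30, 23 and 32 counts with DMSO and 17, 12 and 11 with compound E, and fell 2.07-fold (-1.05 ± 0.303, SE; edgeR adjusted p = 0.00507). In the limma fit of log2(FPKM + 1) without a filter the difference was -0.31 and did not pass (adjusted p = 0.0964). Reads of this pair of near-identical genes cannot be told apart over most of their length, and the handling of reads with several matches was not found in the sources used here. The sum of both, which does not depend on how reads were split between them, was 18.5 ± 1.35 CPM with DMSO and 12.2 ± 0.546 CPM with compound E (SD, n = 3). Reads dropped for matching both genes, if any were, would be missing from this sum as well. Another gene annotated on the same strand, AL671762.1, covers 36.5% of the exon bases of HSPA1B.

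Both HSP110 genes, whose products act as nucleotide exchange factors of HSP70, rose. HSPH1 had 72.3, 73.3 and 69.5 CPM with DMSO and 85.1, 86.2 and 83.1 CPM with compound E, a rise of 1.18-fold (0.24 ± 0.0395 on the log2 scale, SE; edgeR adjusted p = 4.06e-06). HSPA4 went from 134 ± 3.00 to 147 ± 5.98 CPM, a rise of 1.10-fold (adjusted p = 0.00122, edgeR), and was not called in the limma fit of log2(FPKM + 1) without a filter (adjusted p = 0.0570). HSPB1 (chr7:76302544-76304295, plus strand), the small heat shock protein HSP27, had one of the larger rises of the 37. It had 50.4, 50.6 and 46.7 CPM with DMSO and 70.3, 68.6 and 69.7 CPM with compound E. This is a rise of 1.41-fold (0.50 ± 0.0448, SE; edgeR adjusted p = 5.85e-12).

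Among 5 cytosolic J proteins, which bring clients to HSP70, DNAJA1 rose and 4 did not pass. DNAJA1 (chr9:33025211-33039907, plus strand) had 142, 143 and 142 CPM with DMSO and 179, 180 and 184 CPM with compound E, a rise of 1.27-fold (0.35 ± 0.0309, SE; edgeR adjusted p = 3.48e-12). Its relative DNAJA2 stood at 76.2 ± 1.05 and 76.1 ± 1.91 CPM (SD, n = 3), with a log2 fold change of -0.0034 ± 0.0396. DNAJB1, which is strongly induced by heat in many cells, had a log2 fold change of 0.06 ± 0.0343 (adjusted p = 0.154, edgeR). DNAJB6, a suppressor of aggregation, was at -0.02 and DNAJC7, a J protein with TPR repeats, at -0.07 (adjusted p = 0.0909, edgeR). DNAJC7 passed with upper quartile scaling (adjusted p = 0.0370, edgeR) and with a filter of 5 CPM in 3 libraries (adjusted p = 0.0329).

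The HSP70 cochaperones differed from each other as well. BAG3, an exchange factor that links HSP70 to autophagy and small heat shock proteins, had 9.95, 9.64 and 12.4 CPM with DMSO and 14.4, 16.4 and 14.2 CPM with compound E. It rose 1.41-fold (0.50 ± 0.0962, SE; edgeR adjusted p = 5.46e-05). BAG1, the exchange factor that can link HSP70 to the proteasome, was level at 91.3 ± 0.911 and 92.5 ± 1.91 CPM (adjusted p = 0.731, edgeR). ST13, also called HIP, which slows nucleotide release from HSP70, fell 1.13-fold, from 286, 284 and 288 CPM to 252, 255 and 252 CPM (edgeR adjusted p = 1.16e-06). ST13 has 16 named pseudogenes, whose counts came to 1.43% of its own.

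In the HSP90 pair, the inducible gene HSP90AA1 rose and the constitutive gene HSP90AB1 fell by nearly the same amount. HSP90AA1 (chr14:102080738-102139699, minus strand) had 1112, 1095 and 1123 CPM with DMSO and 1301, 1333 and 1317 CPM with compound E, a rise of 1.19-fold (0.25 ± 0.0229, SE; edgeR adjusted p = 1.35e-11). HSP90AB1 (chr6:44246166-44253888, plus strand) had 1224, 1212 and 1251 CPM with DMSO and 1028, 1039 and 1034 CPM with compound E, a fall of 1.19-fold (-0.25 ± 0.0231, SE; edgeR adjusted p = 1.18e-11). Neither gene's groups overlapped, and the sum of both was 2339 ± 34.0 CPM with DMSO and 2351 ± 21.6 CPM with compound E. In CPM HSP90AA1 was the higher of the 2 with compound E. A level per gene length is lowered by annotated exons that these cells do not use, which was not tested for this pair. Per gene length, which sums all annotated exons (5248 bases for HSP90AA1 and 2980 for HSP90AB1), HSP90AB1 remained the higher in both groups. Its deposited FPKM (fragments scaled by gene length and library) went from 409 ± 6.60 to 345 ± 2.23, and that of HSP90AA1 went from 210 ± 2.80 to 250 ± 3.26 (SD, n = 3). Counts of their 4 and 5 named pseudogenes came to 0.372% of those of HSP90AA1 and 0.223% of those of HSP90AB1.

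**Figure D2:**
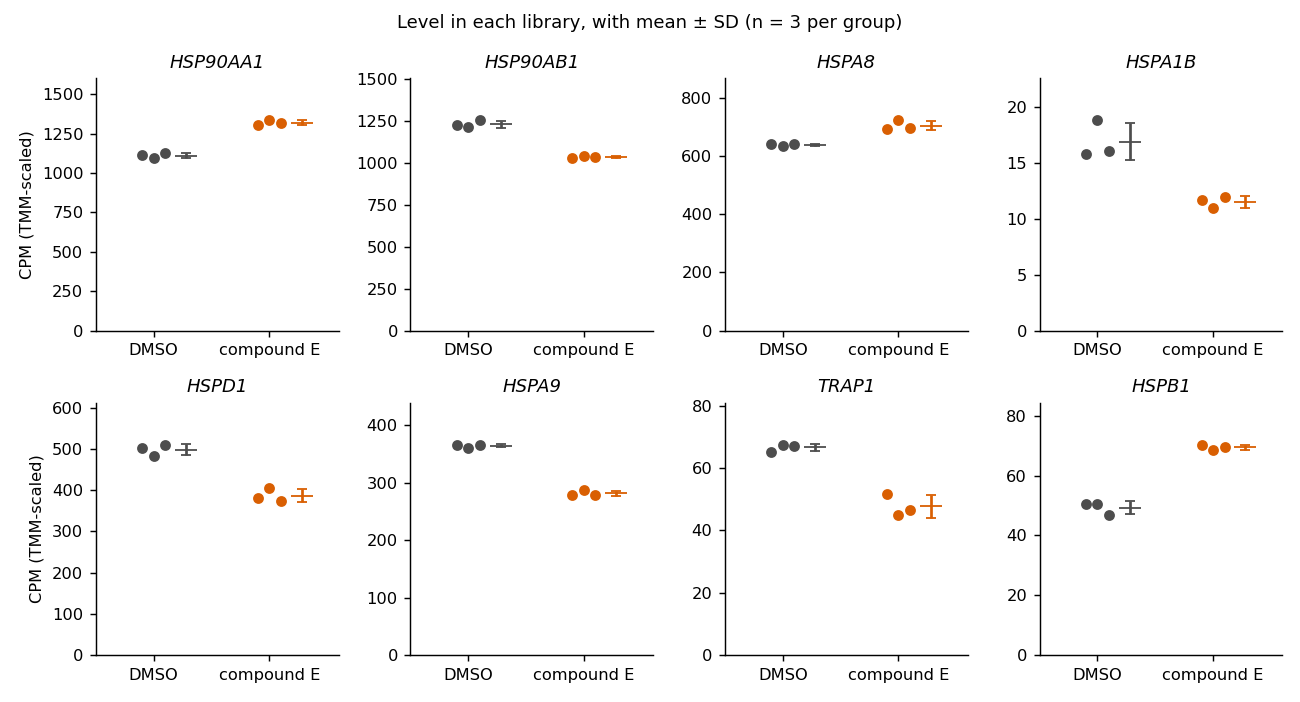
CPM after TMM scaling (y axis, from 0) of 8 genes in each of the 3 DMSO and 3 compound E libraries, with the mean and SD beside the points. The groups are apart in all 8, with HSP90AA1, HSPA8 and HSPB1 higher and HSP90AB1, HSPA1B, HSPD1, HSPA9 and TRAP1 lower with compound E.

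Promoters of both HSP90 genes hold heat shock elements. They are shown because these genes, with the same kind of element, went in opposite directions. The element was searched as 3 alternating units, GAANNTTCNNGAA or TTCNNGAANNTTC, on both strands, in RefSeq promoters (GRCh38.p14, from 250 bases before to 50 after a start). Such promoters were found for 33 of the 37 genes, with 44 starts, and not for HSF1, ST13, FKBP4 and CCT6A. Capitals mark the element, and each line is 5′ to 3′ on the strand of the gene.
HSP90AA1, chr14:102087112-102087140, minus strand: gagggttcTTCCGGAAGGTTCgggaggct
HSP90AB1, chr6:44247748-44247820, plus strand: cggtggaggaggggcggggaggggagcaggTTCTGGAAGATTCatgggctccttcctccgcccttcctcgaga
HSP90AB1, chr6:44247801-44247865, plus strand: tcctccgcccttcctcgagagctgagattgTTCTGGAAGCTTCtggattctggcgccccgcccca
HSPA8, chr11:123062171-123062199, minus strand: cgggccccTTCTGGAAGGTTCtaagatag
CHORDC1, chr11:90223084-90223112, minus strand: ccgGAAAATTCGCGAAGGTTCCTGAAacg
DNAJB6, chr7:157336843-157336915, plus strand: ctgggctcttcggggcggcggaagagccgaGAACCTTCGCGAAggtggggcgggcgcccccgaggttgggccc
HSPD1, chr2:197500062-197500090, minus strand: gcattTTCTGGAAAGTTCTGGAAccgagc

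The element begins 88 bases before the start in HSP90AA1, 165 and 112 bases before it in HSP90AB1, 55 in HSPA8, 60 in CHORDC1, 131 in DNAJB6 and 245 in HSPD1. Where RefSeq lists more than 1 start, as in HSPD1, HSP90AA1 and HSP90AB1, the distance is to the start whose promoter holds the element. HSPA8 holds another of them 230 bases before its start, and in DNAJA1 it lies just after the start. Of the 44 promoters of these genes 7 hold it (15.9%), from 7 genes, against 0.49% of all 35116 promoters of the same length. The 7 genes were not of one direction: HSPA8, HSP90AA1 and DNAJA1 rose, HSP90AB1 and HSPD1 fell, and CHORDC1 and DNAJB6 did not pass. The shorter form with 2 units, GAANNTTC or TTCNNGAA, which the longer one contains, occurs in 38.6% of the promoters of these genes and in 13.49% of all. It is in promoters of 16 of the 37 genes, of which 6 rose, 6 fell and 4 did not pass. For the 7 and the 16 genes alike, the test called 18.9% of all tested genes higher and 19.4% lower. Among tested genes averaging 10 CPM or more it called 27.5% higher and 23.4% lower. HSPA1A, HSPA1B and HSPB1 are 3 of the genes that hold the short form without the longer one. HSPA1A and HSPA1B, which fell, have it in nearly the same surroundings, and HSPB1, which rose, has it 182 bases before its start.
HSPA1A, chr6:31815407-31815463, plus strand: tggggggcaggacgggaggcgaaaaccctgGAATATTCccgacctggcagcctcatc
HSPA1B, chr6:31827603-31827670, plus strand: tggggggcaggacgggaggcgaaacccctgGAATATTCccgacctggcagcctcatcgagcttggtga
HSPB1, chr7:76302461-76302528, plus strand: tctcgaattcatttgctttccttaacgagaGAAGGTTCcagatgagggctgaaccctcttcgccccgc
A match is a description of letters, and binding of HSF1 was not measured.

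Of the 37 genes, 16 were listed as induced by heat. The list includes HSPA8 and HSP90AB1, which are called constitutive above. Of the 16, 8 rose (HSPA8, HSPH1, HSP90AA1, DNAJA1, BAG3, HSPB1, AHSA1 and STIP1), 5 fell (HSPA1A, HSPA1B, HSP90AB1, HSPD1 and FKBP4) and 3 did not pass (DNAJB1, HSPE1 and CHORDC1). That is 50% higher and 31.2% lower, beside 18.9% and 19.4% of all tested genes, with a median log2 fold change of 0.13. Among tested genes averaging 10 CPM or more, as all 16 but HSPA1A did, 27.5% were called higher and 23.4% lower. The other 21 genes had 3 rises (14.3%) and 8 falls (38.1%), with a median of -0.03. The lists were chosen with earlier results of these data known, and the difference between them was not tested.

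STIP1, also called HOP, joins HSP70 to HSP90 through TPR repeats, and it rose with HSPA8 and HSP90AA1. It had 198, 194 and 201 CPM with DMSO and 219.9, 217 and 221 CPM with compound E, a rise of 1.11-fold (0.15 ± 0.0292, SE; edgeR adjusted p = 5.31e-05). Of 6 other HSP90 cochaperones 2 rose (33.3%), 1 fell (16.7%) and 3 did not pass, beside 18.9% higher and 19.4% lower of all tested genes. Among tested genes averaging 10 CPM or more, as all 6 do, the shares were 27.5% and 23.4%. PTGES3, the p23 protein that stabilises closed HSP90, rose 1.19-fold, from 258, 258 and 263 CPM to 312, 318 and 300.1 CPM (edgeR adjusted p = 1.05e-09). AHSA1, which stimulates the ATPase of HSP90, rose 1.16-fold, from 63.3, 62.6 and 62.7 CPM to 67.5, 76.6 and 74.6 CPM (edgeR adjusted p = 0.000160). FKBP4, an immunophilin of steroid receptor complexes, fell 1.17-fold, from 133, 132 and 133 CPM to 114, 111 and 115 CPM (edgeR adjusted p = 3.45e-07). CDC37, which brings kinases to HSP90, had a log2 fold change of -0.0057 ± 0.0315 (SE), PPID, the cyclophilin Cyp40, of -0.03 ± 0.0604, and CHORDC1 of 0.05 ± 0.0578. Their adjusted p from edgeR were 0.909, 0.748 and 0.495.

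The 8 subunits of TRiC, which assemble in equal numbers into its rings, did not change alike. TCP1 (CCT1) rose, CCT3, CCT4 and CCT8 fell, and CCT2, CCT5, CCT6A and CCT7 did not pass. That is 12.5% higher and 37.5% lower, beside 18.9% and 19.4% of all tested genes. Among tested genes averaging 10 CPM or more, as all 8 do, the shares were 27.5% and 23.4%. TCP1 had 354, 348 and 344 CPM with DMSO and 379.7, 388 and 370.0 CPM with compound E, a rise of 1.09-fold (0.12 ± 0.0271, SE; edgeR adjusted p = 0.000393). CCT4 had 166, 165 and 158 CPM with DMSO and 143, 143 and 136 CPM with compound E, a fall of 1.16-fold (-0.21 ± 0.0327, SE; edgeR adjusted p = 1.36e-06), the largest change among the 8. CCT8 fell 1.12-fold, from 243 ± 6.80 to 218 ± 6.50 CPM, and CCT3 fell 1.08-fold, from 318 ± 4.501 to 293 ± 5.20 CPM (edgeR adjusted p = 3.72e-05 and 0.000617). The remaining 4 had log2 fold changes between -0.05 and 0.05. In sum TRiC genes stood at 2192 ± 29.4 CPM with DMSO and 2154 ± 30.6 CPM with compound E.

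**Figure D3:**
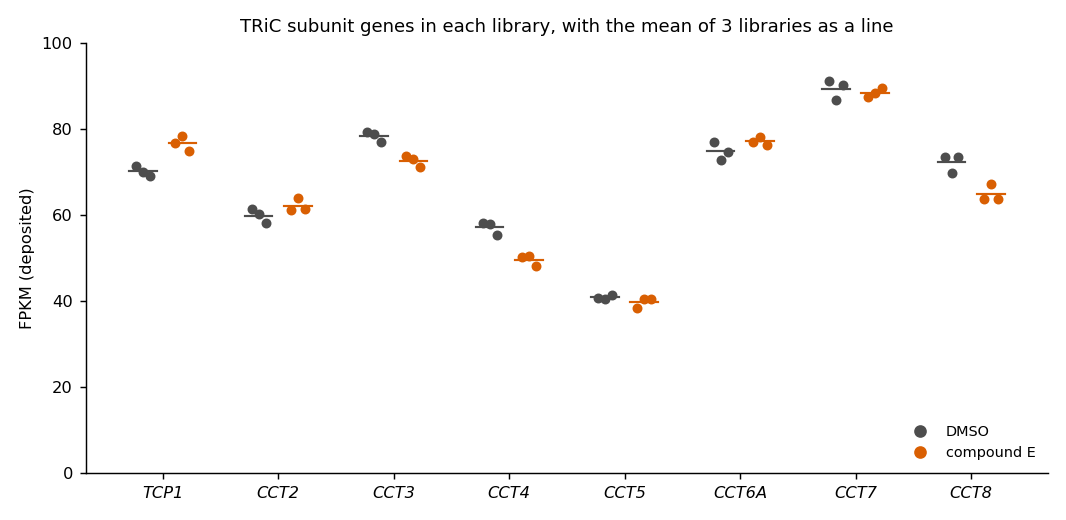
Deposited FPKM (y axis, from 0) of the 8 TRiC subunit genes in each of the 6 libraries, with a line at the mean of 3. The subunits lie between 40.8 (CCT5) and 89.3 (CCT7) with DMSO, and only TCP1, CCT3, CCT4 and CCT8 were called between the groups.

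Levels per gene length differed more between subunits than between groups. With DMSO, the mean FPKM was 89.3 for CCT7, 78.4 for CCT3, 74.8 for CCT6A, 72.2 for CCT8 and 70.1 for TCP1, and then 59.8 for CCT2, 57.1 for CCT4 and 40.8 for CCT5. The gene length in the deposited table sums all annotated exons, so FPKM is lowered in a gene with long exons that these cells do not use. For CCT5, exons of AC012640.4 on the opposite strand cover 30.1% of its exon bases. Of the called subunits, exons of other genes cover 11.1% of the exon bases of TCP1 and 12.6% of those of CCT4. CCT3 and CCT8 have no such overlap. Whether counting used the strand was not found in the sources used here.

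Of the 5 mitochondrial chaperone genes 4 fell (80%) and 1 did not pass. The test called 19.4% of all tested genes lower, and 23.4% of those averaging 10 CPM or more. HSPA9 (chr5:138553756-138575724, minus strand), or mortalin, is the HSP70 of the matrix and part of the import motor, and it had 366, 361 and 365 CPM with DMSO and 279, 287 and 279 CPM with compound E. It fell 1.29-fold (-0.37 ± 0.0269, SE; edgeR adjusted p = 1.27e-14). HSPD1, the chaperonin HSP60, had 503, 484 and 511 CPM with DMSO and 381, 405 and 374 CPM with compound E, also a fall of 1.29-fold (-0.37 ± 0.0287, SE; edgeR adjusted p = 1.04e-13). TRAP1 (chr16:3651639-3717597, minus strand), the HSP90 of mitochondria, had 65.2, 67.4 and 67.2 CPM with DMSO and 51.6, 44.7 and 46.5 CPM with compound E, a fall of 1.40-fold (-0.48 ± 0.0482, SE; edgeR adjusted p = 8.77e-11). Exons of DNASE1 on the opposite strand cover 29.3% of the exon bases of TRAP1. DNAJA3, the J protein TID1, fell 1.197-fold, from 83.0, 79.7 and 87.7 CPM to 69.9, 69.7 and 69.5 CPM (edgeR adjusted p = 2.18e-06). In none of these 4 genes did the groups overlap, where 23.5% of all tested genes were lower with compound E without overlap.

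HSPE1, the HSP10 lid of the HSP60 chamber, was the exception. It had 27.1, 31.7 and 29.7 CPM with DMSO and 29.8, 36.8 and 29.4 CPM with compound E, so that the groups overlapped, and it did not pass (0.12 ± 0.0696, SE; edgeR adjusted p = 0.197). Its value is less certain than those of the others. It has 26 named pseudogenes, which took counts equal to 3.32% of its own. Exons of other genes cover 23.9% of its exon bases, HSPD1 on the opposite strand among them with 14.2%. Its deposited FPKM of 14.8 with DMSO against 117 for HSPD1 stands beside these overlaps, whose part in it was not tested.

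HSPD1 and HSPE1 lie on opposite strands of chromosome 2 (GRCh38), with their RefSeq starts head to head. HSPD1 (ENSG00000144381) is annotated from 197486581 to 197516737 on the minus strand. HSPE1 (ENSG00000115541), from 197499994 to 197503457 on the plus strand, lies wholly inside that span. An E-box, CACGTG, lies before a RefSeq start of each, and is shown because the same 6 letters are in both promoters and the motif is also in that of HSPA9.
HSPD1, chr2:197500345-197500374, minus strand: cggccctggcgaCACGTGaaaaaatcaccc
HSPE1, chr2:197500345-197500374, plus strand: gggtgattttttCACGTGtcgccagggccg
HSPA9, chr5:138575403-138575432, minus strand: cgcccctcacccCACGTGgttggaggtttc
The E-box begins 88 bases before one RefSeq start of HSPD1, 22 before that of HSPE1 and 19 before that of HSPA9. The heat shock element of HSPD1 belongs to the promoter of its other RefSeq start, which holds no E-box. No other of the 33 genes with a promoter holds it, and the share of the 44 promoters with it, 6.8%, is close to the 7.26% of all promoters.

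The 5 mitochondrial genes together held 12.1%, 12.1% and 12.3% of the counts of the 37 genes with DMSO and 9.64%, 9.80% and 9.47% with compound E. Their summed level was 1043 ± 17.9 CPM with DMSO and 817 ± 23.0 CPM with compound E, and that of the 32 cytosolic genes was 7529 ± 53.8 and 7668 ± 82.3 CPM (SD, n = 3). Of these 32, 11 rose and 9 fell (34.4% and 28.1%), beside 18.9% and 19.4% of all tested genes. Among tested genes averaging 10 CPM or more the shares were 27.5% and 23.4%. The share of counts from mitochondrially encoded genes was 5.18% to 5.34% with DMSO and 4.60% to 5.22% with compound E, and its part in the result was not tested. Without the mitochondrially encoded genes in the fit, 11 of the 37 were again called higher and 13 lower.

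Ratios of related genes within a library do not depend on how libraries are scaled, and 8 pairs were compared. The count ratio of HSP90AA1 to HSP90AB1 was 0.909, 0.903 and 0.898 with DMSO and 1.27, 1.28 and 1.27 with compound E, a 1.41-fold change. That of HSPA8 to HSPA9, the cytosolic over the mitochondrial HSP70, was 1.75, 1.76 and 1.76 with DMSO and 2.50, 2.52 and 2.50 with compound E, a 1.43-fold change. Replicates were thus within a few hundredths of each other, far less than the step between the groups. DNAJA1 over DNAJA2 went from 1.87 ± 0.0203 to 2.38 ± 0.0635, and BAG3 over BAG1 from 0.117 ± 0.0151 to 0.162 ± 0.0118 (SD, n = 3). AHSA1 over CDC37 went from 0.305 ± 0.00409 to 0.355 ± 0.0256, and HSPH1 over HSPA4 from 0.536 ± 0.0116 to 0.577 ± 0.0130. HSPD1 over HSPE1 was 18.6, 15.3 and 17.2 with DMSO and 12.8, 11.0 and 12.7 with compound E, with the limits of HSPE1 given above. In each of these 7 pairs the groups did not overlap. That gives the smallest p that 3 against 3 libraries allow in a two-sided exact permutation test, 0.1 (0.114 adjusted over the 8 pairs). For HSP90AA1 with HSP90AB1 and HSPA8 with HSPA9, which moved apart without overlap, this outcome was fixed by the single genes. The ratios restate the changes given above and are not separate evidence. How often other gene pairs do not overlap was not tested. HSPA1A over HSPA1B overlapped between the groups, at 0.0915 ± 0.0271 and 0.0631 ± 0.0156 (exact permutation p = 0.2).

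**Figure D4:**
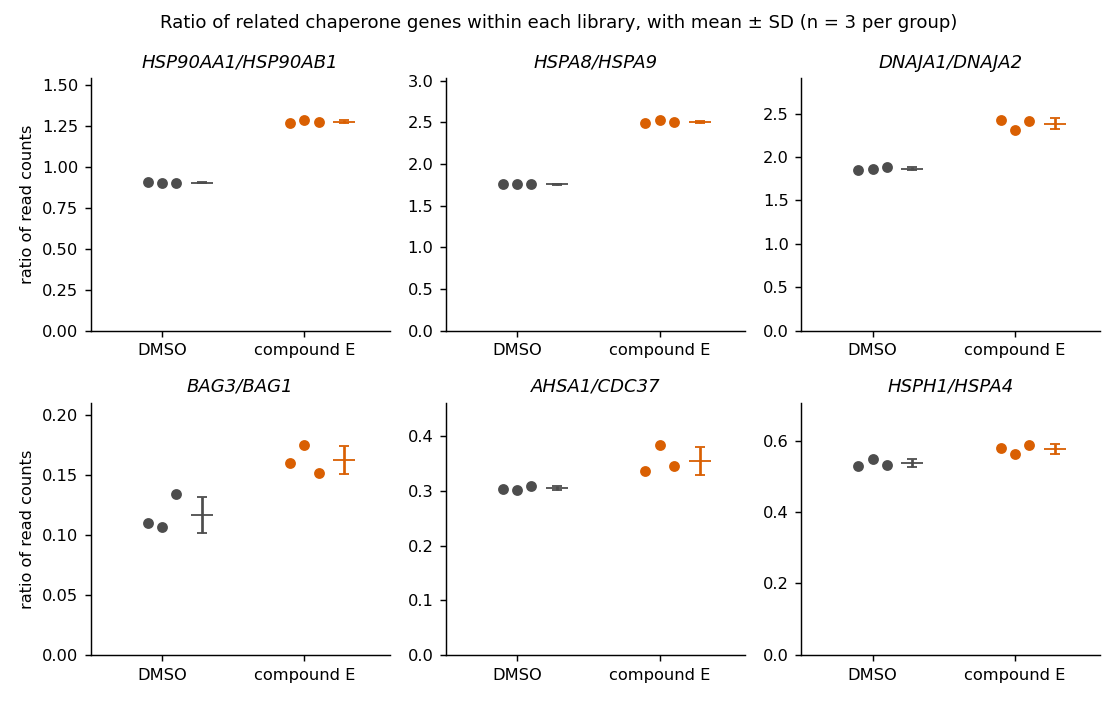
Ratio of read counts (y axis, from 0) for 6 pairs of related chaperone genes in each of 3 DMSO and 3 compound E libraries, with the mean and SD beside the points. HSP90AA1 over HSP90AB1 passes from below 1 to above it, and all 6 ratios are higher with compound E without overlap.

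Other genes of the chaperone network were taken from a list of 98 symbols, present in 100 rows of the table, of which 90 could be tested. In it 19 rows were called higher (21.1%) and 16 lower (17.8%), close to the 18.9% and 19.4% of all tested genes, with a median log2 fold change of 0.02. Without DMSO replicate 1, 12 rows were called higher. The 3 called higher with the smallest p were HYOU1, FKBP5 and DNAJB2. HYOU1, an HSP110 relative of the endoplasmic reticulum, rose from 197 ± 3.09 to 285 ± 3.58 CPM. FKBP5, an immunophilin that competes with FKBP4 on steroid receptor complexes, rose from 272 ± 3.38 to 382 ± 6.46 CPM, so that this pair of HSP90 cochaperones went in opposite directions. DNAJB2, a J protein rich in neurons, rose from 20.6 ± 0.881 to 30.4 ± 0.835 CPM.

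The 4 called lower with the smallest p were LONP1, GRPEL2, FNIP1 and NUDCD3. LONP1, the main protease of the mitochondrial matrix, had 202, 217 and 217 CPM with DMSO and 143, 150.2 and 147 CPM with compound E, a fall of 1.44-fold (edgeR adjusted p = 1.15e-16). GRPEL2, an exchange factor of HSPA9, had 42.4, 41.2 and 40.7 CPM with DMSO and 28.9, 24.4 and 28.2 CPM with compound E, a fall of 1.52-fold (edgeR adjusted p = 4.24e-11). Its relative GRPEL1 did not pass (0.08, adjusted p = 0.225). Of 11 tested mitochondrial cochaperones and proteases 4 fell, CLPP and CLPB being the others, and 1 rose, SPG7, a subunit of an inner membrane protease (0.10 on the log2 scale). That is 36.4% lower and 9.09% higher, beside 19.4% and 18.9% of all tested genes. Among tested genes averaging 10 CPM or more the shares were 23.4% and 27.5%. FNIP1, a cochaperone of HSP90 that partners folliculin, fell from 60.4 ± 0.984 to 48.9 ± 1.10 CPM, and NUDCD3, a cochaperone of dynein intermediate chain, from 60.7 ± 0.436 to 49.3 ± 1.90 CPM.

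**Figure D5:**
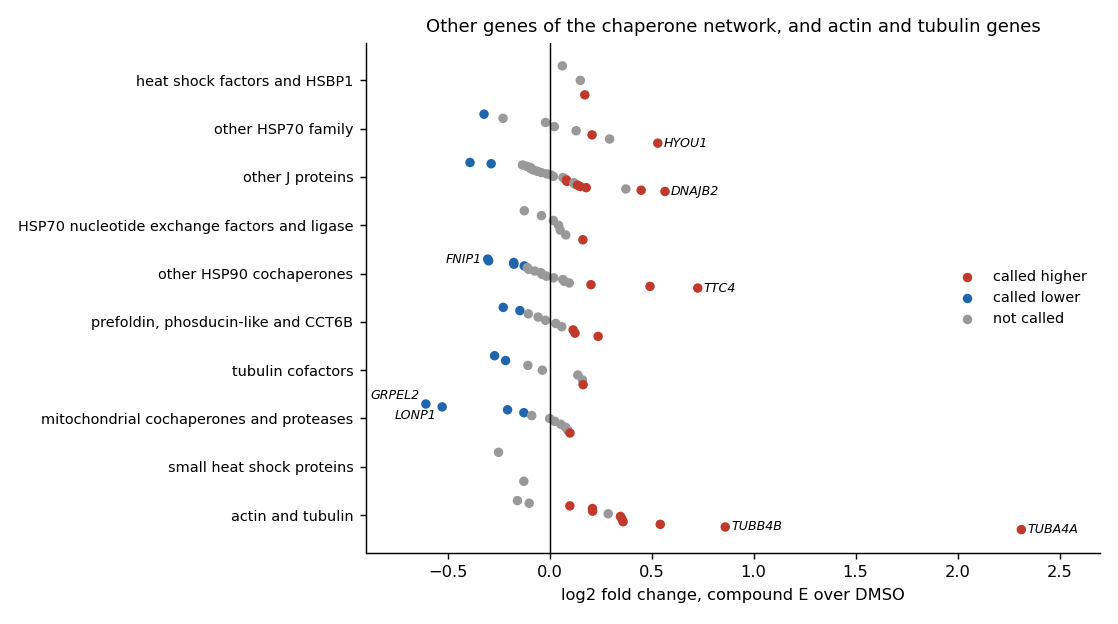
Log2 fold change of compound E over DMSO (x axis) for 90 tested rows of other chaperone network genes and 12 tested actin and tubulin genes, by role, with calls in colour as red for higher and blue for lower. LONP1 (-0.53) and GRPEL2 (-0.61) lie at the left among mitochondrial genes, and actin and tubulin genes lie mostly to the right, up to TUBA4A (2.31), which had at most 84 counts in a library.

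Actin and tubulin, the main clients of TRiC, were also looked at. Of 14 genes 12 could be tested, 9 rose and 0 fell, where 18.9% of all tested genes rose and 19.4% fell. Among tested genes averaging 10 CPM or more, which not all of the 12 did, 27.5% rose and 23.4% fell. At an unadjusted p under 0.05 the count that fell was 0 as well. TUBB4B rose from 156 ± 2.27 to 284 ± 7.72 CPM, ACTB from 1993 ± 25.6 to 2558 ± 103 CPM, TUBA1C from 90.7 ± 0.283 to 132 ± 10.04 CPM and TUBA1B from 914 ± 13.4 to 1163 ± 55.8 CPM. These genes rose while the sum of the TRiC subunits differed between the groups by little more than its spread over libraries. Phosducin-like proteins and prefoldin, which hand clients to TRiC, were listed with the TRiC subunit paralogue CCT6B. In that group 3 of 10 tested genes were higher (PFDN1, PDCL and TXNDC9) and 2 were lower (PFDN4 and PFDN6), and CCT6B was not called. These shares of 30% and 20% are near the 27.5% and 23.4% called among all tested genes averaging 10 CPM or more.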

How the data were processed

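RNA of 3 DMSO and 3 compound E libraries was compared, grouped by the titles in the labels. The authors deposited whole-number read counts per gene, not normalised. They also deposited FPKM values, which equal counts divided by gene length and by 1 divisor per library (checked in genes with at least 100 counts). HISAT2 2.0.5, featureCounts 1.5.0-p3 and DESeq2 1.16.1 are named, with no role, per the submitters' processing notes. The sources used here do not give the genome build, strand use or treatment of reads with several matches. All 58735 identifiers had the start, end, strand and name of GENCODE release 29, so coordinates are given on GRCh38.

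Counts were fitted over all genes in R 4.3.3 with edgeR 4.0.16 (filterByExpr, TMM, quasi-likelihood F-test, treatment as the only term), with Benjamini-Hochberg adjustment over 16926 genes and calls at an adjusted p under 0.05. The standard error is the log2 fold change divided by the square root of F. CPM are counts divided by the TMM-scaled library size. On simulated counts for 16687 genes, 50 were changed at each fold. The fit found 44% of those given a 1.2-fold change and 66% of those given 1.5-fold. It found 86% for 2-fold and 100% for 4-fold, and 2.63% of the calls on those counts were false. In the data 38.3% of tested genes were called, a far larger share than was changed in the simulation. The shares found on simulated counts therefore need not hold for the data. The share of false calls among the genes called in the data was not tested. Alternatives were other scalings, other filters, DESeq2 1.42.0, limma-voom and limma 3.58.1 on log2 FPKM, the replicate number as a block, and each library left out. A fit without mitochondrially encoded genes and counts with named pseudogenes added were chosen after seeing the data. All 37 genes are named, and in the other lists up to 4 called genes in each direction with the smallest p, of which 1 is not reported here; HSF2, HSBP1, GRPEL1, CLPP, CLPB, SPG7, TUBA4A, CCT6B, TXNDC9, PDCL and the named PFDN and small heat shock genes were picked with their values known. The members and lists were chosen with earlier results of these data known. Figures were drawn with matplotlib 3.10.9.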

Additional observations from a re-analysis of the deposited data

How the results depend on the processing

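Under 19 alternatives, 21 of the 24 called genes kept direction and call in every one that tested them. The other 3, HSF1 (adjusted p = 0.102), HSPA1A (0.0964) and HSPA4 (0.0570), lost the call with limma on log2(FPKM + 1) without a filter, where 10 of the 37 genes were called higher and 11 lower, and HSPA1A was not tested with the filter of 5 CPM. In the other 18 alternatives 11 genes were higher and 13 lower, or 14 with upper quartile scaling; with the 5 CPM filter DNAJC7 stood among the 13 in place of HSPA1A. The unfiltered FPKM fit also called fewer genes in all, 4002 (2128 higher, 1874 lower), and 11 of the related chaperone rows higher. Leaving out 1 library gave 12 to 16 such rows higher, against 19 with all libraries, the lowest without DMSO replicate 1. DESeq2 called 4949 genes in all.

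Replicate numbers are shared between the groups but did not pair the libraries (correlations of deviations between -0.0191 and 0.0103 for equal numbers). With the replicate number as a block 6138 genes were called, 3019 higher and 3119 lower, with 11 and 13 of the 37 chaperone genes and 17 and 16 of the related rows. The widest standard errors were those of HSPA1A, BAG3 and HSPA1B, and HSPA1A had the fewest counts.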

Other observations

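Several chaperone genes were too scarce in these cells to be tested. HSPA6, an HSP70 that is strictly induced by stress, had 8, 6 and 10 counts with DMSO and 3, 2 and 3 with compound E. The small heat shock proteins HSPB3, HSPB7, HSPB8 and CRYAA had 0 counts in every library, and HSPB2 and CRYAB had at most 1. HSPB6 and HSPB9 passed the filter on low counts and were not called, at 0.690 and 1.19 CPM with DMSO, against 49.2 CPM for HSPB1.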
